A study of Mus musculus with 19 samples.

Results

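The genes of the cytosolic ribosome were examined in regulatory T cells (Tregs) sorted from mouse lymph nodes by their level of CD44, with and without a burn injury. They were taken by symbol, as every gene of the count table whose name is RPL or RPS followed by a number and at most the letters A, X, Y or L with a last digit, together with Rplp0, Rplp1, Rplp2 and Rpsa. This gave 86 of the 24982 genes, of which 77 encode proteins of the standard ribosome and 9 are paralogs whose names end in L or L1. A paralog is a second gene for a closely related protein. Of the 86 genes, 79 had enough counts to be tested, among 11464 genes tested in all.

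Bulk RNA-seq was made from 4 CD44high and 5 CD44low samples of uninjured (sham) mice and from 4 CD44high and 6 CD44low samples of mice 7 days after injury, 19 libraries in all. All mice carried the Foxp3DTR allele, in which the Foxp3 locus also drives green fluorescent protein and a diphtheria toxin receptor, and for these libraries the sources used here name no toxin treatment. They were 8 to 16 weeks old, and the injury was a burn of 20% of the body surface made in water at 90 °C for 9 seconds. CD4+ FoxP3-GFP+ T cells of the axillary, brachial and inguinal nodes, which drain the injury site, were separated by FACS into a CD44high and a CD44low fraction, and RNA of 50000 cells was used for each library. CD44 is a surface receptor that is high on activated and memory T cells. The labels do not tell how many mice gave cells to a library, and the p-values therefore measure only the spread between these libraries, which may be technical.

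The cytosolic ribosome translates nearly all cellular mRNA. Its small subunit reads the mRNA, its large subunit joins the amino acids, and the stalk, a protruding part of the large subunit made of Rplp0, Rplp1 and Rplp2, recruits the elongation factors. Ribosomal protein mRNAs are short and abundant, and most of them begin with a C followed by a run of pyrimidines. These are the TOP mRNAs (terminal oligopyrimidine), whose translation is governed by the mTOR kinase and the RNA-binding protein Larp1. In T cells activation is known to be followed by cell growth and ribosome production.

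Sequence around the annotated start was read for genes the comparisons turn on, to show the pyrimidine run by which these mRNAs are known and the members that have none. Each window of 30 bases is from RefSeq (GRCm38.p6), on the strand of the gene, with each run of a C followed by at least 5 further C or T in capitals.
Rps6 (chr4:86857349-86857378, minus strand): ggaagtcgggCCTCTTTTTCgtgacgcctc
Rps7 (chr12:28635913-28635942, minus strand): cgctgtccccaCCTCTTTTCTTCCgccacc
Rpl13 (chr8:123102324-123102353, plus strand): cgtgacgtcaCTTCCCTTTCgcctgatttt
Rpl4 (chr9:64173361-64173390, plus strand): gtgacaagtCTTTCCTTTTCCTgtgggagc
Rpl13a (chr7:45128722-45128751, minus strand): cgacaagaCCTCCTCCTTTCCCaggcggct
Rpl35 (chr2:39005115-39005144, minus strand): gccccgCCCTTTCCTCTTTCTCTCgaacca
Rps15a (chr7:118116143-118116172, minus strand): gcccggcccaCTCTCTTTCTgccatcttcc
Rps27l (chr9:66946063-66946092, plus strand): aCTCCTCTCCaCTCCTCCCCgccgcctcta
Rplp0 (chr5:115559452-115559481, plus strand): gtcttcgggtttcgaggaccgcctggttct
Rpl41 (chr10:128549154-128549183, minus strand): cacacgggccggctcggaagtgacgacacc
Rpl7l1 (chr17:46782642-46782671, minus strand): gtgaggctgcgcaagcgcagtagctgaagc
The first 8 windows hold a run and the last 3 hold none. A start window was at hand for 65 of the 86 genes, and 47 of them (72.3%) had such a run between 20 bases before and 30 bases after an annotated start, on the strand of the gene, against 37.8% of 27025 mouse genes. Over the 300 bases from 250 before to 50 after the start, read on both strands, CCGGAAG was found in 40.0% of the 65 genes and in 9.9% of all genes. AAGATGGC was found in 9.2% and 3.2%. These last motifs can overlap by AAG. Where a gene has several annotated starts, any of them counted, and a match is a description of these letters. Annotated starts can lie some bases from the start used in these cells.

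The libraries held 5582234 to 9433610 counts, and 12622 to 13860 genes had at least 1 count. All 37 pairs of libraries within a group differed by more than counting noise (chi-square per degree of freedom 4.96 to 41.3, where noise gives about 1). No library was therefore taken as another one sequenced again. A second preparation from the same mice or RNA would also exceed this noise, so such repeats cannot be told apart from separate samples. Foxp3, the factor that defines Tregs, did not pass the test between the fractions of uninjured mice (log2 fold change -0.39, edgeR adjusted p = 0.186), while Cd44, the gene used in the sort, was higher in CD44high cells by 2.16. Of 7 Treg and sort genes examined, 3 were higher and 1 lower in CD44high cells of uninjured mice (background 24.7% and 21.3% of all genes). In injured mice 4 were higher and 1 lower (background 20.1% and 17.2%). Without CD44low replicates 1_2, 4_2 and 5_2 these were 3 and 1 (background 18.2% and 12.7%). Haemoglobin genes were at 0 in every library. Of the 4 stromal and vessel genes examined, Pdpn was at 0 throughout and Col3a1 at most 0.713 CPM. Of the 6 injured CD44low libraries, 3 carry a single replicate number (1, 2 and 5) and 3 carry a second number (1_2, 4_2 and 5_2), whose meaning no source used here gives. These 3 stood apart from the other 3 in the ribosomal protein genes, so the counts and most of the single genes that use this group are given with and without them.

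The share of a library's counts that fell on the 86 genes was lower in CD44high than in CD44low Tregs of uninjured mice, with no overlap between the groups. It was 1.25%, 1.37%, 1.55% and 1.52% in the 4 CD44high libraries (mean 1.42% ± 0.138, SD). It was 2.53%, 2.87%, 2.82%, 3.12% and 3.14% in the 5 CD44low libraries, so the mean of the CD44low group was 2.04 times that of the CD44high group. After injury the 4 CD44high libraries held 1.54%, 1.95%, 1.50% and 1.85% (mean 1.71% ± 0.227, SD), which overlaps the uninjured range, and the ratio of the means was 1.20.

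The injured CD44low libraries fell into separate levels. Replicates 1, 2 and 5 held 2.12%, 2.13% and 1.60%, below all 5 uninjured CD44low libraries. Replicates 1_2, 4_2 and 5_2 held 3.24%, 3.88% and 2.75%, the first 2 above and the last within the range of the uninjured libraries. The mean of the second set was 1.69 times that of the first. With all 6 libraries the injured CD44low mean was 0.905 times the uninjured mean and 1.53 times the injured CD44high mean, and without replicates 1_2, 4_2 and 5_2 it was 1.14 times the injured CD44high mean. No test was made of these sums. The Wilson 95% interval of a share was at most 0.0161 percentage points to either side, which covers counting error only, and is far smaller than the distance between libraries of a group. A share is relative to all counts of a library. The amount of RNA per cell was not measured, and in bulk samples fewer cells that hold these mRNAs and less of them in each cell cannot be told apart.

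**Figure D1:**
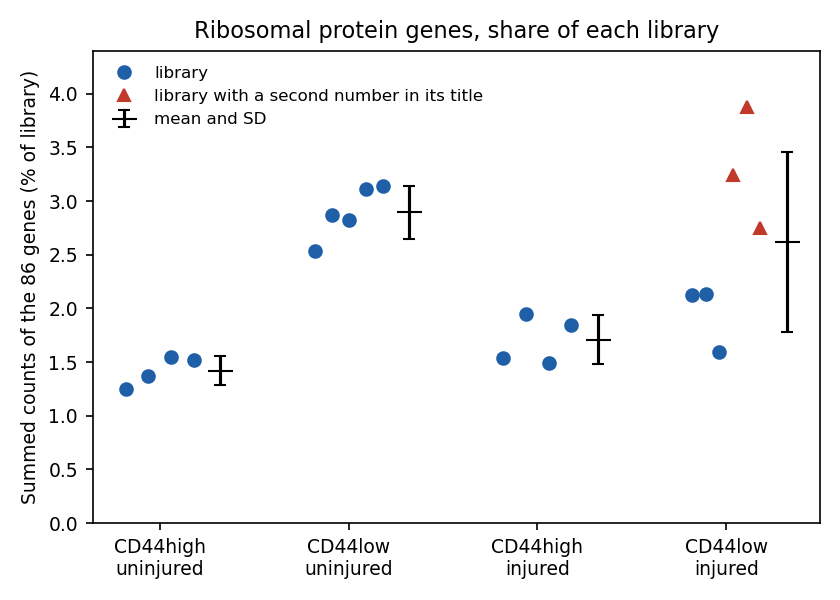
Share of each library's counts on the 86 ribosomal protein genes, in percent, by group. Points are libraries, triangles are the injured CD44low replicates with a second number, and bars give the mean ± SD. The uninjured groups do not overlap (1.25% to 1.55% against 2.53% to 3.14%), and the triangles (2.75% to 3.88%) lie above the other injured CD44low libraries (1.60% to 2.13%).

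Levels of single genes were compared per length, as CPM (counts of a gene per 1000000 counts of the library, scaled to the TMM-normalised library total) divided by the length of the gene's exons in kilobases and averaged over the 19 libraries. Among the higher levels, Rps14 had 934, Rpl4 843, Rpl32 843, Rpl13 838 and Rplp0 774 CPM per kilobase, and the median over the 79 genes tested was 230.03. The lowest gene tested was Rpl34, with 2.60 CPM per kilobase. These levels are only as good as the assignment of reads, because 83 of the 86 genes share at least some stretches of 50 bases with other annotated genes, many of them processed pseudogenes. Reads from such stretches map to several places, and no source used here tells how the authors' counting treated them. Levels per kilobase also rest on annotated exon lengths, which can differ from those of the mRNAs counted.

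The first question was how CD44high Tregs differed from CD44low Tregs of the same lymph nodes in uninjured mice. Of the 79 genes, 74 were lower in CD44high cells and 1 was higher (edgeR quasi-likelihood test, Benjamini-Hochberg adjusted p under 0.05), where 21.3% of all 11464 genes were lower and 24.7% were higher. The median log2 fold change was -0.998 over the 79 genes and 0.0091 over all genes. For 73 of the 79 genes every CD44high library lay below every CD44low library, against 18.8% of all genes. Markers of dividing cells and of other cell types moved with this comparison. The summed level of 6 genes of dividing cells was 730 to 955 CPM in CD44high and 173 to 201 CPM in CD44low libraries, and all 6 were higher in CD44high cells. The sum of 5 macrophage and dendritic cell genes was 63.2 to 138 against 19.8 to 39.3 CPM, with all 5 higher. The sums of 4 B cell genes (96.4 to 190 against 68.3 to 136 CPM) and of 4 CD8 and NK cell genes (46.4 to 67.8 against 50.03 to 67.6 CPM) overlapped, and in each list 1 gene was higher in CD44high cells, Cd79b (log2 fold change 0.84) and Klrb1c (3.63). Of the stromal and vessel genes, Col1a1 was higher (1.43 to 3.22 against 0 to 0.284 CPM) and Pecam1, which some T cells also express, was lower (56.1 to 70.8 against 186 to 219 CPM). Their part in the result was not tested.

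All 30 small subunit genes tested were lower in CD44high cells of uninjured mice, with a median log2 fold change of -1.06 and a range of -1.46 to -0.65. Rps19, needed to mature the RNA of the small subunit and mutated in Diamond-Blackfan anaemia, had 222, 251, 248 and 251 CPM in CD44high libraries and 554, 601, 626, 717 and 691 CPM in CD44low libraries. The groups were far apart, and the log2 fold change was -1.39 ± 0.17 (SE; edgeR, adjusted p = 6.47e-07). Rps7, a small subunit protein that also binds Mdm2, had 116, 121, 131 and 133 CPM against 281, 330, 315, 359 and 357 CPM, a log2 fold change of -1.39 ± 0.20 (edgeR, adjusted p = 3.72e-06). Rps6, the substrate of S6 kinase, had 188, 175, 206 and 197 CPM against 304, 365, 345, 390 and 371 CPM. It fell by less than Rps19 or Rps7, with a log2 fold change of -0.89 ± 0.13 (edgeR, adjusted p = 4.45e-06).

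Rps15a, a core protein of the same subunit, had 71.5, 88.7, 117 and 127 CPM in CD44high and 251, 236, 259, 299 and 287 CPM in CD44low libraries of uninjured mice. The 4 CD44high values spread widely but none reached the lowest CD44low value, and the log2 fold change was -1.40 ± 0.27 (edgeR, adjusted p = 0.000163). Rps25, known for its role at internal ribosome entry sites, had 72.2, 77.0, 99.9 and 97.7 CPM against 131, 180, 180, 196 and 188 CPM, with no overlap and a log2 fold change of -1.01 ± 0.21 (edgeR, adjusted p = 0.000484). Rps3, which lies at the mRNA entry channel, is useful here because 97.0% of its 50-base stretches occur in no other annotated gene. It had 530, 589, 667 and 656 CPM against 1153, 1256, 1204, 1297 and 1417 CPM, a log2 fold change of -1.05 ± 0.19 (edgeR, adjusted p = 8.65e-05). Rps27a, made as a fusion with ubiquitin, Rps26, at the mRNA exit, and Rps14, at the decoding platform, had log2 fold changes of -1.12, -0.997 and -1.04. Rpsa, also known as the laminin receptor precursor, changed by -0.74 ± 0.23 (edgeR, adjusted p = 0.00996). The lowest log2 fold change of the 79 genes was that of Rps28, a very short small subunit gene, at -1.46 (edgeR, adjusted p = 0.000154).

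Of the 41 large subunit genes tested, 40 were lower in CD44high cells of uninjured mice, with a median of -0.998. Rpl13 had 377, 419, 413 and 399 CPM in CD44high and 727, 793, 804, 867 and 893 CPM in CD44low libraries. The libraries of each group lay close together, and the log2 fold change was -1.02 ± 0.15 (edgeR, adjusted p = 5.15e-06). Rpl4, which reaches into the exit tunnel of the growing protein, had the highest mean CPM of all members, 853, 751, 1032 and 964 CPM against 1256, 1653, 1534, 1691 and 1659 CPM, with a log2 fold change of -0.79 ± 0.13 (edgeR, adjusted p = 3.53e-05). Rpl5 and Rpl11 carry the smallest ribosomal RNA into the large subunit and, when free, bind Mdm2, the ligase that degrades p53. Rpl5 had 86.3, 80.5, 93.4 and 87.8 CPM against 110, 150, 152, 160 and 175 CPM (log2 fold change -0.78 ± 0.19, edgeR, adjusted p = 0.00163). Rpl11 had 97.0, 101, 138 and 125 CPM against 173, 222, 236, 243 and 244 CPM (log2 fold change -0.95 ± 0.22, edgeR, adjusted p = 0.00126). Neither overlapped between the groups.

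Rpl22, known to be needed for the development of αβ T cells, had 53.8, 73.6, 89.6 and 83.6 CPM in CD44high and 144, 149, 141, 162 and 169 CPM in CD44low libraries of the uninjured group, a log2 fold change of -1.03 ± 0.24 (edgeR, adjusted p = 0.00129). Rpl38, known from the translation of Hox mRNAs, had a log2 fold change of -0.73 ± 0.18 (edgeR, adjusted p = 0.00222). Rpl10 and Rpl10a gave -0.69 and -1.03, Rpl32 -1.21 and Rpl13a -1.04, all past the test. Rpl39, a very short tunnel protein, had 36.7, 63.4, 62.5 and 57.4 CPM against 85.7, 89.3, 91.6, 107 and 109 CPM. Its 36.7 CPM came from replicate 2, and its log2 fold change of -0.81 ± 0.31 (edgeR, adjusted p = 0.0345) no longer passed the test without that library (adjusted p = 0.111). The large subunit gene that did not pass the test was Rpl34, at a mean of 1.63 CPM (log2 fold change 0.22, edgeR, adjusted p = 0.673). As for Rpl30 and Rps27, which had too few counts to test, so low a level of a core gene may be a property of the table as counted.

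The 3 stalk genes were lower in CD44high cells of uninjured mice, with a median of -0.96. Rplp0, which anchors the stalk to the large subunit, had 702, 795, 822 and 854 CPM in CD44high and 1116, 1178, 1187, 1298 and 1446 CPM in CD44low libraries, a log2 fold change of -0.65 ± 0.15 (edgeR, adjusted p = 0.00143). Rplp1 had 188, 244, 261 and 264 CPM against 425, 453, 451, 521 and 524 CPM, a log2 fold change of -0.99 ± 0.22 (edgeR, adjusted p = 0.000841). Rplp2, its partner, had 159, 212, 209 and 194 CPM against 346, 354, 353, 426 and 401 CPM, a log2 fold change of -0.96 ± 0.21 (edgeR, adjusted p = 0.000802). No stalk gene overlapped between the groups, and Rplp0 had the smallest fold change of the 3.

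The 5 paralogs tested did not share one direction in uninjured mice. Rps27l, the p53-induced paralog of Rps27, was the only one of the 79 genes that was higher in CD44high cells. It had 70.2, 80.4, 86.6 and 73.3 CPM in CD44high and 38.6, 39.1, 43.9, 48.3 and 48.6 CPM in CD44low libraries. The groups did not overlap, and the log2 fold change was 0.83 ± 0.14 (edgeR, adjusted p = 5.81e-05). Rpl22l1, the paralog of Rpl22, was lower in CD44high cells, as Rpl22 was. It had 31.0, 43.9, 43.0 and 41.1 CPM against 60.5, 63.2, 59.6, 69.4 and 70.6 CPM, a log2 fold change of -0.70 ± 0.19 (edgeR, adjusted p = 0.00358).

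The other 3 paralogs did not pass the test between the fractions of uninjured mice. Rpl7l1, which acts in pre-ribosome assembly, had 167, 154, 159 and 179 CPM in CD44high and 136, 150, 157, 140 and 174 CPM in CD44low libraries (log2 fold change 0.12, edgeR, adjusted p = 0.508). Rpl36al had 33.2, 41.9, 48.2 and 43.4 CPM against 43.0, 44.6, 50.1, 53.2 and 54.5 CPM (log2 fold change -0.24 ± 0.15, edgeR, adjusted p = 0.217). Rps4l had 1.29 to 8.60 CPM over these 9 libraries (log2 fold change 0.48 ± 0.41, edgeR, adjusted p = 0.359). All 3 overlapped between the groups.

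**Figure D2:**
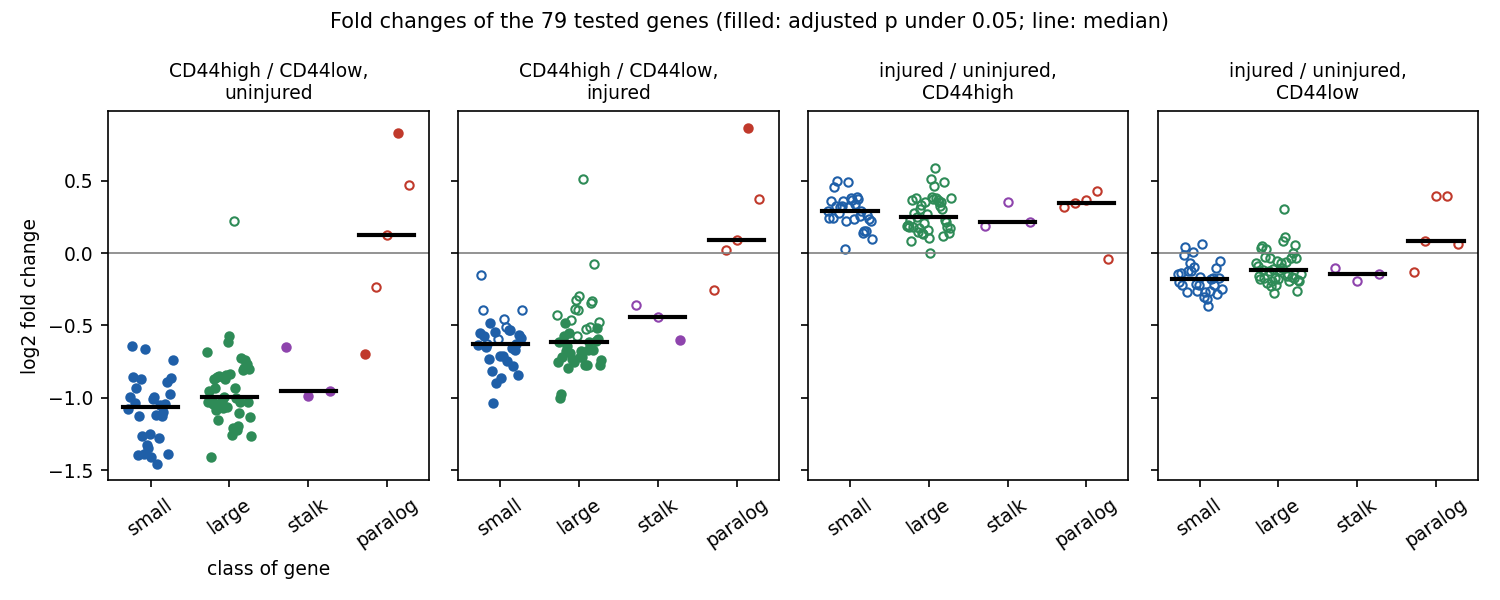
Log2 fold change (edgeR) of each of the 79 genes tested, by class (small subunit, large subunit, stalk, paralog), in 4 panels for the comparisons of CD44high with CD44low in uninjured and in injured mice and of injured with uninjured mice in each fraction. Filled points passed an adjusted p of 0.05 and the line marks the class median. In uninjured mice 74 filled points lie below 0 and 1, Rps27l, lies above, and neither injury panel has a filled point.

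In injured mice the fractions differed in the same direction for most genes with all 6 CD44low libraries, and for few of them with replicates 1, 2 and 5 alone. With all libraries, 50 of the 79 genes were lower in CD44high cells and 1 was higher (background 17.2% and 20.1% of all genes), and the median log2 fold change was -0.59. Without replicates 1_2, 4_2 and 5_2, 8 were lower and 3 higher (background 12.7% and 18.2%), and the median was -0.11. Both of these shares of the members lie below the background. Among the 8 were Rps6, Rps7, Rps19, Rpl3, Rpl4, Rpl13 and Rpl35, and the 3 were Rps12, Rpl41 and Rps27l. With those 3 as the only injured CD44low libraries the median was -0.95. By class, with all libraries, 22 of 30 small subunit genes (median -0.63), 27 of 41 large subunit genes (-0.61) and 1 of 3 stalk genes (-0.44) were lower. Without the second set these were 3, 5 and 0 genes, with medians of -0.12, -0.15 and -0.034. Genes of dividing cells summed to 591 to 665 CPM in CD44high and 186 to 228 CPM in CD44low libraries of injured mice, with 6 of 6 higher. Macrophage and dendritic cell genes summed to 85.3 to 232 against 33.4 to 146 CPM, with 1 of 5 higher, and 0 of 5 without the second set. Klrb1c and Col1a1 were again higher and Pecam1 lower, with and without that set. Their part in the result was not tested.

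Every CD44high library lay below every CD44low library of injured mice for 5 of the 79 genes, a smaller share than the 9.2% of all genes. These were Rps19, Rps6, Rpl13, Rpl35 and Rpl4. Rps19 had 310, 353, 269 and 320 CPM in CD44high libraries, and 506, 494 and 427 CPM in CD44low replicates 1, 2 and 5 and 889, 894 and 640 CPM in replicates 1_2, 4_2 and 5_2. Its log2 fold change was -1.04 ± 0.17 (edgeR, adjusted p = 2.93e-05) and, without the second set, -0.60 (adjusted p = 0.000118). Rpl13 had 432, 459, 372 and 437 CPM in CD44high libraries and 703, 734 and 564 CPM, then 1133, 1082 and 805 CPM, in the CD44low sets. Its log2 fold change was -0.98 ± 0.14 (edgeR, adjusted p = 8.52e-06), and -0.65 without the second set (adjusted p = 2.99e-05).

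Rps6 had 213, 219, 194 and 227 CPM in CD44high libraries of injured mice, and 296, 297 and 252 CPM, then 408, 423 and 307 CPM, in the CD44low sets. Its log2 fold change was -0.63 ± 0.12 (edgeR, adjusted p = 0.000254), and -0.40 (adjusted p = 0.00346) without the second set. Rpl4 had 970, 1034, 895 and 1010 CPM against 1476, 1452 and 1107 CPM, then 1906, 1888 and 1511 CPM, with log2 fold changes of -0.67 (edgeR, adjusted p = 0.000213) and -0.46 (adjusted p = 0.00527) in the same order. Rpl35, beside the exit of the tunnel, had 90.3, 83.7, 75.8 and 93.0 CPM against 114, 125 and 119 CPM, then 217, 179 and 127 CPM. Its log2 fold change was -0.78 ± 0.16 (edgeR, adjusted p = 0.000475), and -0.48 (adjusted p = 0.00582) without the second set.

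Rps7 had 124, 182, 129 and 167 CPM in CD44high libraries of injured mice, and 220, 219 and 155 CPM, then 325, 423 and 278 CPM, in the CD44low sets. The groups overlapped through CD44low replicate 5. The log2 fold change was -0.84 ± 0.19 (edgeR, adjusted p = 0.001), and -0.39 (adjusted p = 0.0345) without the second set. Rps3 had 647, 833, 650 and 786 CPM against 829, 866 and 587 CPM, then 1241, 1641 and 1172 CPM. Its call (log2 fold change -0.53 ± 0.18, edgeR, adjusted p = 0.023) was lost without the second set (adjusted p = 0.756). Rplp2 had 192, 268, 199 and 239 CPM against 275, 254 and 177 CPM, then 441, 545 and 353 CPM. Its adjusted p was 0.0231 with all libraries (log2 fold change -0.60 ± 0.20, edgeR) and 0.763 without the second set. For the other stalk genes the log2 fold change with all libraries was -0.36 ± 0.15 for Rplp0 (edgeR, adjusted p = 0.0597) and -0.44 ± 0.21 for Rplp1 (edgeR, adjusted p = 0.103). Without the second set it was -0.034 for Rplp0 and 0.15 for Rplp1.

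Rpl41, the shortest protein of the ribosome, turned direction with the choice of CD44low libraries. In injured mice it had 140, 207, 155 and 197 CPM in CD44high libraries, and 145, 143 and 96.6 CPM, then 184, 297 and 241 CPM, in the CD44low sets. The log2 fold change was -0.076 ± 0.21 with all libraries (edgeR, adjusted p = 0.806) and 0.45 without the second set (adjusted p = 0.0402). Rps27l kept its higher level in CD44high cells, with 114, 89.2, 93.6 and 122 CPM against 59.2, 49.1 and 55.1 CPM, then 78.3, 59.5 and 44.0 CPM. The CD44high and CD44low libraries did not overlap for this gene in either injury state. Its log2 fold change was 0.86 ± 0.14 (edgeR, adjusted p = 2.05e-05), and 0.94 (adjusted p = 1.49e-05) without the second set.

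**Figure D3:**
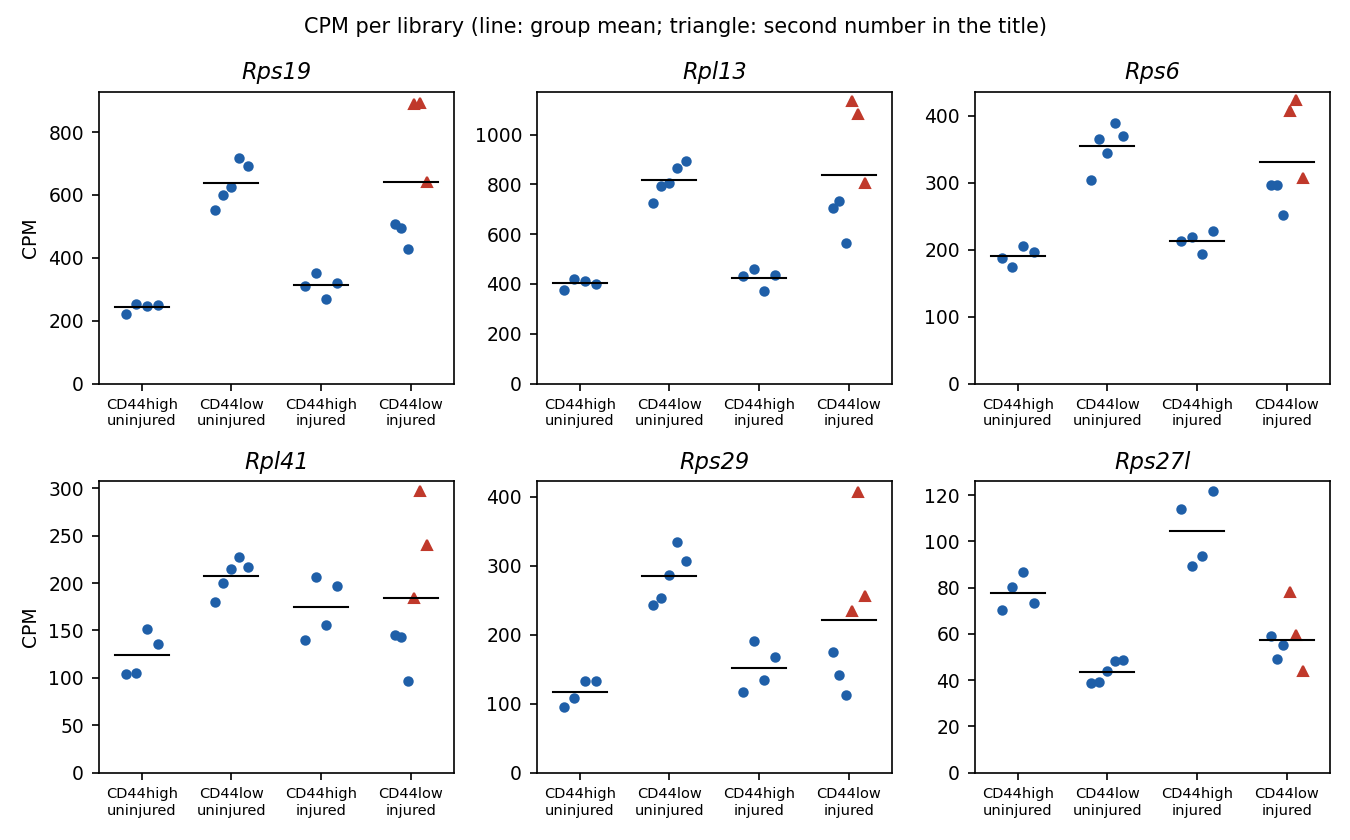
CPM (TMM-normalised) in each library for Rps19, Rpl13, Rps6, Rpl41, Rps29 and Rps27l, by group, with triangles for the injured CD44low replicates with a second number and a line at each group mean. Rps19 lies between 222 and 251 CPM in uninjured CD44high and between 554 and 717 CPM in uninjured CD44low libraries, while Rps27l runs the other way (70.2 to 86.6 against 38.6 to 48.6 CPM).

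Within the injured CD44low group, each of replicates 1_2, 4_2 and 5_2 lay above each of replicates 1, 2 and 5 for 73 of the 79 genes (92.4%), against 9.37% of all genes tested. The median log2 ratio of the set means was 0.84 over the 79 genes and 0.014 over all genes. Rpl39 had the highest ratio, with a mean of 122.5 CPM in the second set and 49.9 CPM in the first (log2 ratio 1.29). Rps28, Rps21, Rps24 and Rpl23 followed with log2 ratios of 1.22, 1.20, 1.19 and 1.15. The second set had 5987042, 5582234 and 6604211 counts per library, and the first had 6723163, 8011051 and 6763804. Macrophage and dendritic cell genes summed to 33.4, 41.7 and 38.1 CPM in the second set and to 53.0, 73.9 and 146 CPM in the first. Neutrophil genes summed to 0, 1.08 and 3.90 CPM against 0, 29.3 and 4.99 CPM. The length at which a library's counts were split evenly between shorter and longer genes was 2471, 2714 and 2945 bases in the second set and 2664, 2702 and 2860 bases in the first, which overlap. The part of these measures in the difference was not tested.

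**Figure D4:**
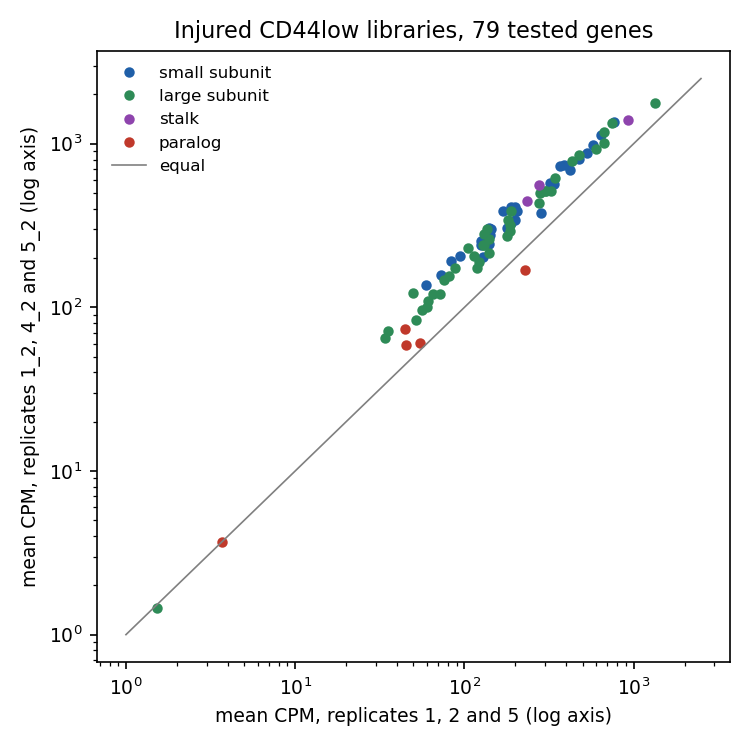
Mean CPM of each ribosomal protein gene in injured CD44low replicates 1, 2 and 5 (horizontal, log axis) and in replicates 1_2, 4_2 and 5_2 (vertical, log axis), with the line of equal values. Nearly all points lie above the line, with a median log2 ratio of 0.84.

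The next question was what changed 7 days after injury within each fraction. These comparisons share libraries with those between the fractions. In CD44high Tregs no gene of the 79 passed the test (edgeR, background 1.06% higher and 1.33% lower), 7 had an unadjusted p under 0.05 (15.1% of all genes did), and DESeq2 called 0 (background 1.67% higher and 2.42% lower). The median log2 fold change was 0.28, and 78 of the 79 estimates were above 0, the exception being Rps4l, where 47% of all genes were above 0. Most members varied together between libraries, so these signs are not separate observations. Fitted on the CD44high libraries alone, 7 genes were higher (background 2.5%), namely Rps14, Rps19, Rps27l, Rpl13a, Rpl32, Rpl35 and Rpl35a. With the other groups in the fit but without CD44low replicates 1_2, 4_2 and 5_2, 7 were higher (background 2.32%), with Rpl7l1 in place of Rpl13a. For 12 genes every injured CD44high library lay above every uninjured one, against 5.91% of all genes, and for none did it lie below (7.34% of all genes). These 12 were Rps14, Rps18, Rps19, Rpl5, Rpl9, Rpl13a, Rpl32, Rpl34, Rpl35, Rpl35a, Rpl7l1 and Rps27l. Among them Rpl34 lay near the floor, with 1.50 to 1.72 CPM in uninjured and 1.73 to 2.49 CPM in injured libraries. The class medians were 0.29 for small subunit genes, 0.25 for large subunit genes, 0.21 for the stalk and 0.34 for the paralogs.

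Rps27l had 70.2 to 86.6 CPM in uninjured and 89.2 to 122 CPM in injured CD44high libraries, a log2 fold change of 0.43 ± 0.15 (edgeR, adjusted p = 0.147). Rpl35 went from 54.9 to 69.1 CPM to 75.8 to 93.0 CPM, with a log2 fold change of 0.47 ± 0.17 (edgeR, adjusted p = 0.180). For both genes the ranges did not meet, and the adjusted p did not pass. Rpl35a, a large subunit protein mutated in some Diamond-Blackfan families, had 20.5, 21.0, 25.4 and 23.6 CPM in uninjured and 29.2, 38.9, 30.2 and 37.9 CPM in injured libraries (log2 fold change 0.59 ± 0.24, edgeR, adjusted p = 0.232). Rpl41 had 104, 106, 152 and 136 CPM against 140, 207, 155 and 197 CPM (log2 fold change 0.49 ± 0.23, edgeR, adjusted p = 0.312), with overlap. Neutrophil genes summed to 0 to 0.615 CPM in uninjured and 1.20 to 19.2 CPM in injured CD44high libraries. Genes of dividing cells summed to 730 to 955 CPM in uninjured and 591 to 665 CPM in injured libraries, without overlap, although none of the 6 passed the test and 3 had an unadjusted p under 0.05. Pecam1 was higher after injury (log2 fold change 0.69, edgeR, adjusted p = 0.0075). The part of these genes in the members' values was not tested.

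In CD44low Tregs no gene passed the test between injured and uninjured mice with all libraries (edgeR, background 4.24% higher and 3.36% lower), 3 had an unadjusted p under 0.05 (26% of all genes did), and DESeq2 called Rpl7l1 and Rps27l higher and 0 lower (background 8% higher and 4.53% lower). These shares of the members lie below the background. The median log2 fold change was -0.14. Without replicates 1_2, 4_2 and 5_2, 68 genes were lower and 1 was higher after injury (background 7.67% and 7.4%), and the median was -0.63. With only those 3 as the injured group, Rpl13a and Rpl35 were higher (2 genes, near the background of 2.62%) and the median was 0.25. With all libraries, the injured and uninjured CD44low libraries overlapped for every one of the 79 genes, where 2.39% of all genes lay wholly higher and 2.29% wholly lower. The direction of the injury difference in CD44low cells therefore followed which injured libraries entered the fit. Since the second set and the first are the same labelled group, no one of these values is preferred here. Single markers of other cells moved with this comparison too. With all libraries 1 of 5 macrophage and dendritic cell genes, Lyz2, was higher after injury by 1.27 on the log2 scale. So were 1 of 2 neutrophil genes tested, S100a9 (5.28), and 1 of 4 CD8 and NK cell genes, Klrb1c (3.00). Of 6 genes of dividing cells 1, Birc5, was higher (1.15). All 4 were also higher without the second set. The other genes of these lists did not pass with all libraries. Sums of dividing-cell genes overlapped (173 to 201 CPM in uninjured against 186 to 228 CPM in injured libraries). Neutrophil genes lay near the floor, with sums of 0 to 1.69 CPM in uninjured and 0 to 29.3 CPM in injured CD44low libraries. The highest of these sums came from injured replicate 2. The sums of CD8 and NK cell genes overlapped (50.03 to 67.6 against 47.6 to 60.1 CPM). The part of these markers in the result was not tested.

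Rps29, a short zinc-binding protein of the small subunit, shows this. It had 242, 253, 286, 335 and 307 CPM in uninjured CD44low libraries, 175, 141 and 113 CPM in injured replicates 1, 2 and 5, and 234, 407 and 257 CPM in replicates 1_2, 4_2 and 5_2. The first injured set lay wholly below the uninjured libraries and the second spread across them. The log2 fold change was -0.37 ± 0.22 with all libraries (edgeR, adjusted p = 0.299), -0.99 with the first set (adjusted p = 0.000674) and 0.097 with the second (adjusted p = 0.798). Rpl41 changed by -0.70 with the first set (edgeR, adjusted p = 0.00614), from 179, 200, 214, 228 and 217 CPM in the uninjured libraries. Rpl7l1 was the gene that was higher with the first set, at 233, 219 and 232 CPM against 136 to 174 CPM in uninjured libraries (log2 fold change 0.59, edgeR, adjusted p = 0.00125). In the second set it had 227, 144 and 140 CPM, and with all libraries its log2 fold change was 0.40 ± 0.13 (edgeR, adjusted p = 0.0631). Rps27l gave 0.39 ± 0.13 with all libraries (edgeR, adjusted p = 0.0645).

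Whether injury acted differently in the fractions was tested as an interaction, the injury difference in CD44high minus that in CD44low cells. None of the 79 genes passed (edgeR, background 0.192% higher and 0.454% lower), 5 had an unadjusted p under 0.05 (10.9% of all genes did), and DESeq2 called 0 (background 0.471% higher and 1.28% lower). The median was 0.40 on the log2 scale, and 77 of 79 estimates were above 0, as were 46.8% of all genes. These signs too are not separate observations, since most members varied together between libraries. Rps15a gave 0.77 ± 0.36 (edgeR, adjusted p = 0.432), Rps21 0.76 ± 0.35 (adjusted p = 0.427), Rps29 0.74 ± 0.34 (adjusted p = 0.420) and Rpl41 0.66 ± 0.30 (adjusted p = 0.413). Without the second set of injured CD44low libraries 60 genes passed upward (background 1.3%), with a median of 0.87. Rps29 was then at 1.37 (edgeR, adjusted p = 0.00227), Rps15a at 1.43 (adjusted p = 0.00358), Rps21 at 1.47 (adjusted p = 0.00136) and Rpl41 at 1.19 (adjusted p = 0.0043), and with only the second set the median over the genes was 0.033.

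How well libraries of a group repeated each other was measured as the coefficient of variation (CV) of CPM over the libraries, for the 74 members with a mean of at least 50 CPM. The median CV was 11.9% in uninjured CD44high (range 4.60% to 25.3%) and 9.60% in uninjured CD44low libraries (6.12% to 17.1%). It was 15.2% in injured CD44high (4.54% to 27.0%) and 36.2% in injured CD44low libraries (19.4% to 55.7%). For the other 4495 genes at that level it was 8.86%, 10.7%, 11.5% and 15.6% in the same order, so the members spread more than other genes in all groups but uninjured CD44low. Within replicates 1, 2 and 5 of injured CD44low the median was 19.1% (9.13% for the other genes), and within replicates 1_2, 4_2 and 5_2 it was 19.6% (16.1%).

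Most of this spread was common to the members. With each gene taken relative to the summed CPM of all members in its library, the median CV was 6.02%, 4.10%, 6.13% and 7.90% in the 4 groups. Over the 19 libraries, which share groups and library totals, log2 CPM of Rps24 followed that of the sum of the other members with r = 0.996, and Rpl9 with 0.995, as a description. At the other end stood Rpl41 (0.840) and Rpl36al (0.593), and then Rps4l (-0.206), Rpl34 (-0.331), Rpl7l1 (-0.349) and Rps27l (-0.573). The members with a lower spread within groups were Rps6 (12.3% over the pooled groups), Rpl4 (13.5%) and Rps27l (14.7%), and those with a higher one were Rps4l (43.2%), Rpl39 (33.0%) and Rps15a (29.9%).

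**Figure D5:**
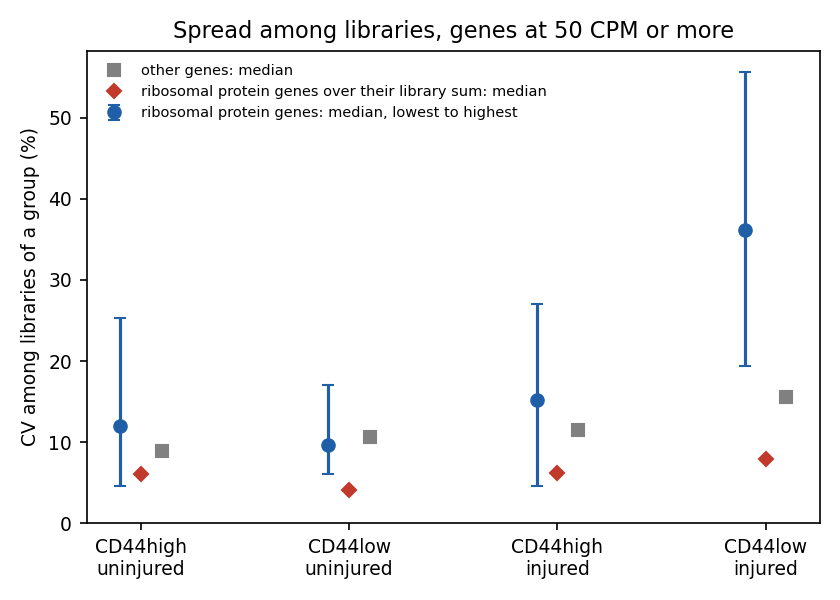
Coefficient of variation of CPM between libraries of each group, in percent, for the 74 ribosomal protein genes with a mean of at least 50 CPM (median and range), for other genes at that level (median), and for the members relative to the library's member sum (median). In injured CD44low libraries the median is 36.2% for members, 15.6% for other genes and 7.90% relative to the member sum.

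The members are short, with a median exon length of 906 bases against 2924 for all genes tested. Across the members, Spearman's rho of this length with the CD44high-to-CD44low log2 fold change in uninjured mice was -0.0013. It is a description across genes, which are not independent. These are annotated exon lengths, which can differ from those of the mRNAs counted. Among genes of at most 600 bases the median log2 fold change was -0.99 for 18 members and -0.10 for 125 other genes. Between 600 and 1000 bases it was -0.99 for 31 members and 0.10 for 559 others, and between 1000 and 2000 bases -1.03 for 24 members and 0.18 for 2428 others. Between 2000 and 4000 bases it was -0.86 for 5 members and 0.075 for 4708 others. Over 4000 bases it was -1.40 for 1 member, Rps15a, and -0.26 for 3451 others. In each of these bins the members' median lay below that of the other genes. Sequence shared with other genes was examined in the same way. The 7 members tested with at least 90% of their 50-base stretches unique had a median of -1.05 in uninjured and -0.63 in injured mice, and the 31 with under 50% unique had -0.97 in uninjured mice.

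The other 7 of the 86 genes had too few counts to test. Rpl26 and Rpl10l were at 0 in all libraries, which at 132085438 counts in all allows up to 0.0227 CPM as counted. Rps27 had 91 counts in all, and 1.4% of its 50-base stretches are unique. Rpl30 had 48 counts, Rpl3l 3, Rpl32l 77 and Rpl39l 83. For Rpl26, of whose stretches 39.0% are unique, and for Rps27 and Rpl30, proteins of every ribosome, such values are a property of the table as counted, and give no level of the mRNA in these cells.

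Genes that work with the ribosome were taken from lists of its known partners. Fau, which encodes a ribosomal protein fused to a ubiquitin-like protein, had a log2 fold change of -0.92 (edgeR, adjusted p = 0.000829) between CD44high and CD44low cells of uninjured mice. Rack1, a scaffold bound to the small subunit, gave -0.67 (edgeR, adjusted p = 0.00992). Of 12 elongation factors and other TOP genes, 6 were lower and 1, Nap1l1, a histone chaperone, was higher in uninjured mice (median -0.56, background 21.3% lower and 24.7% higher of all genes). Eef1a1, which delivers aminoacyl-tRNA, fell by 0.83 on the log2 scale (edgeR, adjusted p = 0.000872), and its exchange factor subunits Eef1b2 and Eef1g fell by 0.91 and 0.70. In injured mice 7 were lower and 1 higher (median -0.49, background 17.2% and 20.1%). Without the second set of CD44low libraries 1 was lower, Eef1g, and 1 higher (median -0.059, background 12.7% and 18.2%).

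Of 46 ribosome biogenesis genes, 31 were lower and none was higher in CD44high cells of uninjured mice, with a median of -0.43 (background 21.3% and 24.7%). Polr1a and Polr1b, the catalytic subunits of RNA polymerase I, changed by -1.13 (edgeR, adjusted p = 7.98e-06) and -1.09 (adjusted p = 9.19e-06), and the nucleolar proteins Nolc1 and Nop56 by -0.82 and -0.80. In injured mice 24 were lower (median -0.33, background 17.2%), and 25 without the second set (median -0.38, background 12.7%). Injury changed none in CD44high cells (edgeR, with 8 at an unadjusted p under 0.05, near the 15.1% of all genes), and DESeq2 counts were taken for the members only. In CD44low cells Wdr12 (0.47, edgeR, adjusted p = 0.0157) and Noc2l (0.30, adjusted p = 0.0196) were higher and Polr1a (-0.82, adjusted p = 0.00227) was lower after injury, and all 3 calls held without the second set. These 2 higher and 1 lower of the 46 genes lie near the background of 4.24% and 3.36% of all genes.

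Among 17 regulators of TOP mRNAs and of their transcription, 9 were lower and 2 higher in CD44high cells of uninjured mice (median -0.63, background 21.3% and 24.7%). Myc, which drives ribosome genes, changed by -1.42 (edgeR, adjusted p = 8.48e-11), and Larp1, which binds the TOP run, by -1.11 (adjusted p = 3.48e-06). Eif4ebp1, an inhibitor of cap-dependent translation that mTOR switches off, was higher by 1.35 (edgeR, adjusted p = 3.61e-06), and Rheb, the activator of mTOR, by 0.56 (adjusted p = 0.00232). In injured mice 2 were higher and 6 lower (background 20.1% and 17.2%), and without the second set 2 were higher and 4 lower (background 18.2% and 12.7%). After injury 1 of the 17, Myc, was higher in CD44high cells (0.45, edgeR, adjusted p = 0.0217, background 1.06%). In CD44low cells 1, Eif4ebp1, was higher (0.65, edgeR, adjusted p = 0.0281, background 4.24%). There 3, Eif4ebp2, Larp4 and Tsc1, were lower (-0.67, -0.57 and -0.77, background 3.36%). Without the second set the call of Eif4ebp1 was lost (0.43, adjusted p = 0.086) and the other 3 held.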

How the data were processed

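RNA of sorted lymph node Tregs was converted to cDNA with SMART-Seq v4 and sequenced as bulk RNA-seq. The authors deposited raw gene counts, made with STAR (version 2.5 in the submitters' processing notes, which name bcl2fastq 2.18 and both mm9 and mm10) within the VIPER pipeline. The table held 24982 genes and 5582234 to 9433610 counts per library.

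Genes were kept with edgeR's filterByExpr (minimum count 10), which left 11464, normalised with TMM, and fitted over all 4 groups with edgeR 4.0.16 (quasi-likelihood test, two-sided, Benjamini-Hochberg over all genes tested, threshold 0.05) in R 4.3.3. DESeq2 1.42.0 was an alternative. The fit was tested on simulated counts with known changes. Lengths and shared 50-base stretches came from GENCODE transcripts, and 95 of the symbols found no name there or in RefSeq. Figures were drawn with matplotlib 3.10.9.

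The members and lists were chosen with earlier results of these data known. Named genes were the 4 of smallest p per comparison and direction among those past the test, the 5 of highest mean CPM, the paralogs, members with a known role, the 3 of highest and the 3 of lowest spread, and pathway genes past the test. Rps12, Rps18, Rps21, Rps24, Rps28, Rps29, Rpl3, Rpl9, Rpl23, Rpl34, Rpl35, Rpl35a and the single marker genes lie outside this rule and were named after their values were seen. Some genes that the rule names are not reported here. Alternatives changed the test, the libraries fitted, the scaling, the filter, the pairing, the length trend, the depth, the threshold and each library in turn. The injured CD44low libraries in their label sets and the members with unique sequence were added after the data were seen.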

Additional observations from a re-analysis of the deposited data

Results flagged for a closer look

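In 144 checks of the highest and lowest library within a group of 4 to 6, 2 values stood farther from the nearest other library than Dixon's 95% limit allows. The checks share libraries and most of the genes varied together, so they are not independent and their number was not set against chance. They look at single values, and cannot mark a group in separate levels such as injured CD44low. Rps19 had 222 CPM in replicate 2 of the uninjured CD44high group, where the other libraries had 247.7 to 251.4 CPM. Rps25 had 130.8 CPM in replicate 1 of the uninjured CD44low group, where the others had 179.8 to 196.3 CPM.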

How the results depend on the processing

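The comparison of the fractions in uninjured mice kept its direction under every alternative run, with 71 to 74 genes lower and medians of -1.05 to -0.95 when each library was left out in turn, and with 0 higher and 3 lower at an unadjusted p under 1e-06 and a 2-fold change. In injured mice leaving out 1 library gave 37 to 70 genes lower (70 without CD44low replicate 5, 37 without CD44high replicate 4) and medians of -0.72 to -0.44. There 29 were lower at an adjusted p under 0.01, and 0 were higher and 0 lower at 1e-06 and 2-fold. Without replicates 1_2, 4_2 and 5_2, 3 were higher and 8 lower with a median of -0.11, and with those as the only injured CD44low libraries the median was -0.95. The counts of CD44low replicates 1 and 1_2, and of 5 and 5_2, were also summed. Rps19 then gave -1.05 (edgeR, adjusted p = 3.46e-06), Rplp0 -0.40 (adjusted p = 0.0177) and Rpl38 -0.36 (adjusted p = 0.0768).

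Injury in CD44high cells gave 7 genes higher on its own libraries alone, 7 without the second set and 1 with that set only. Leaving out 1 library gave medians of 0.21 to 0.34. In CD44low cells injury gave 2 higher with DESeq2, 1 without the filter, 1 after thinning to the smallest total, 1 lower with the length trend taken out, 1 higher and 68 lower (median -0.63) without the second set, and 2 higher (median 0.25) with that set only. Leaving out 1 library gave 0 to 2 higher and 0 to 1 lower, and medians of -0.29 to 0.0069, the last without CD44low replicate 5. The interaction gave 60 higher (median 0.87) without the second set, a median of 0.033 with that set only, and 0.27 to 0.56 with 1 library left out. The cause of these changes was not tested.

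Single genes turned sign in the comparison of the fractions in injured mice, most of them near 0. Without the second set 24 of the 79 genes turned, and among those of the naming rule these were Rpl7l1 (-0.10), Rpl22l1 (0.16), Rpsa (0.15), Rpl22 (0.11), Rpl38 (0.058), Rpl10 (0.075), Rps27a (0.045), Rplp1 (0.15), Rps26 (0.10), Rpl41 (0.45), Rpl39 (0.45) and Rps15a (0.037). Rpl36al gave -0.0067 with TMM factors computed without the members, -0.18 with the second set only, -0.046 with the length trend taken out and -0.040 to 0.125 with 1 library left out, below 0 for 9 of the 19. Rpl41 gave -0.22 to 0.098 with 1 library left out, above 0 without CD44low replicate 4_2 or 5_2, Rpl7l1 gave -0.016 without CD44high replicate 2, and Rps29 gave 0.097 for injury in CD44low cells with the second set only. In injured mice the calls of Rpl11, Rplp2 and Rps3 were lost without CD44high replicate 2 or 4 or CD44low replicate 4_2, and those of Rpl11 and Rplp2 also without 1_2. In uninjured mice the call of Rpl39 was also lost without CD44high replicate 5 or CD44low replicate 4 or 5, and with DESeq2 (adjusted p = 0.0585).

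Whether the replicate numbers pair the samples is not settled, and the main fit did not pair them. Same-numbered libraries of the same injury status deviated together with correlations of -0.054 to 0.17 (median 0.082, over 0.1 in 4 of 8 pairs). Differently numbered libraries of the same injury status gave -0.45 to 0.41 (median -0.021, over 0.1 in 5 of 36 pairs). With the number as a replicate block 74 genes were lower in uninjured mice (median -1.02) and 48 in injured mice (median -0.60), and 39 in injured mice when the block was nested in injury status. The block called 0 genes for injury in either fraction. No share of mitochondrially encoded genes could be taken out of the totals, since the table holds no such rows. Shares of a library are limited by the spread between libraries, not by depth.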
